A study of Mus musculus with 4 samples.

Results

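Interferon response and major histocompatibility complex (MHC) class I genes were examined in melanotropes of the intermediate pituitary lobe and corticotropes of the anterior lobe. Both cell types produce the hormone precursor pro-opiomelanocortin (POMC). The set held 39 genes from antigen presentation, interferon receptors and their signal factors, RNA sensors and interferon-induced effectors. All 39 were among the 24063 genes of the deposited table, with 56 of its 33072 RefSeq transcripts. Members were found by gene symbol, a rule that uses no measured value.

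RNA had been sequenced in 2 melanotrope and 2 corticotrope libraries. All came from C57B6 mice of the POMC-EGFP line, in which the Pomc promoter drives GFP. The lobes were parted by dissection and GFP-positive cells were sorted from each, so that both groups carry the transgene and no treatment. The labels give no sex, age or number of animals per library, nor whether replicates are separate sorts, so p-values measure only the spread between these libraries, which may be technical.

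MHC class I molecules carry peptides of the cell's own proteins to its surface, where T cells and natural killer cells read them. Each is a heavy chain paired with beta-2 microglobulin (B2m). Peptides are cut by the proteasome, pumped into the endoplasmic reticulum by Tap1 and Tap2 and loaded with the help of tapasin (Tapbp). Type I interferon acts through Ifnar1 and Ifnar2, and interferon gamma through Ifngr1 and Ifngr2. The receptors switch on transcription factors of the STAT and IRF families, which induce antiviral effectors and raise class I presentation.

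Interferon-responsive promoters often hold the interferon-stimulated response element, whose core was searched as GAAA, 2 bases of any kind and GAAA again, on both strands from 250 bases before to 50 bases after the start site. Of 34 members with a promoter in the RefSeq table (GRCm38.p6), 14 held it, or 41.2%, against 3.99% of 27025 genes and 3.44% of 32851 promoters of that length. Many members are known interferon targets, so their choice bears on this share. A match in these letters is not a measured binding site. The shorter gamma-activated site TTCNNNGAA was in 9 of 34 members, or 26.5%, against 9.55% of genes. The 250 bases before the start site are shown for the 2 called members in each direction with the smallest adjusted p among those in the promoter table (Usp18 is not in it), and for further called members with a match. Capitals mark this response element core on either strand, read 5′ to 3′ along the gene.

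H2-T23 (chr17:36032702-36032951, minus strand): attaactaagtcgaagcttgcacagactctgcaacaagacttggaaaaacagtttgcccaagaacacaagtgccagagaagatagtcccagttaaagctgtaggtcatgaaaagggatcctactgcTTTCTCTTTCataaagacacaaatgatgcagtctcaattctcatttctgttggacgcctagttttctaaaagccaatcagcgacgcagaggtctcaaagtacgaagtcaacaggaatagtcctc
Irf7 (chr7:141266425-141266674, minus strand): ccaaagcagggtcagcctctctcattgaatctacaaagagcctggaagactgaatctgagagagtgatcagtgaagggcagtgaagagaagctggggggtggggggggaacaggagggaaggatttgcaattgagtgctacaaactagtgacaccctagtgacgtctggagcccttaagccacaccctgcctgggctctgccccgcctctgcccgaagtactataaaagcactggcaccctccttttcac
Ifih1 (chr2:62646256-62646505, minus strand): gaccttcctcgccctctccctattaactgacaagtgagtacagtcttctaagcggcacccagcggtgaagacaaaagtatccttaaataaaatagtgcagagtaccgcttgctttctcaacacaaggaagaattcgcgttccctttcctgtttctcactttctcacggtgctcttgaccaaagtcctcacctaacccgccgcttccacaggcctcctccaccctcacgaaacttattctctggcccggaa
B2m (chr2:122147437-122147686, plus strand): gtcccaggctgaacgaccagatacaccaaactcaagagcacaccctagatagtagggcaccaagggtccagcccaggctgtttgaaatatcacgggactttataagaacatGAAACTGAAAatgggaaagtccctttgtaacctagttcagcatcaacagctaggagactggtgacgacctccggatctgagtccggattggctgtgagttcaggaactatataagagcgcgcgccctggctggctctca
Stat2 (chr10:128270248-128270497, plus strand): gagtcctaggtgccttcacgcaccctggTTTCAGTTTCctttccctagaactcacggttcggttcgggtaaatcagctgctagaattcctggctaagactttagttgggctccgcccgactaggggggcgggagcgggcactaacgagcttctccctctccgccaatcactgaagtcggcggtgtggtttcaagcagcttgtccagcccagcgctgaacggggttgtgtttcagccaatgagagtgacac
Irf2 (chr8:46739495-46739744, plus strand): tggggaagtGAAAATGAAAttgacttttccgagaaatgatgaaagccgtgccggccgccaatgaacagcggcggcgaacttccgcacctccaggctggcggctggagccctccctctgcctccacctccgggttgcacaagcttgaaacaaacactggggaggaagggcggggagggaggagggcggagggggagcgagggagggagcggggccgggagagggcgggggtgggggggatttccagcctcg

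H2-T23 and Irf7 were higher in melanotropes and the other 4 were lower, with values given below. The match began 124 bases before the start site in H2-T23 and 139 bases before it in B2m. It lay at 222 bases in Stat2 and 241 bases in Irf2. The Stat2 start site of the RefSeq table lies 78 bases from that of the longest deposited transcript. Irf7 held neither motif in this window. The match of Ifih1 began 32 bases after the start site, outside the bases printed above, and is shown as a stretch of 30 bases. The number of promoters printed in full was limited, so matches of Ddx58 and Ifit1 are shown as such stretches too. In Ddx58 the match lay 2 bases after the start site. Ifit1 had 2 matches, at 104 and 85 bases before it.

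Ifih1 (chr2:62646206-62646235, minus strand): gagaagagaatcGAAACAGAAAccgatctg
Ddx58 (chr4:40239804-40239833, minus strand): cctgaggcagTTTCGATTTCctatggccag
Ifit1 (chr19:34640775-34640804, plus strand): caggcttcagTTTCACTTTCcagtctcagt
Ifit1 (chr19:34640794-34640823, plus strand): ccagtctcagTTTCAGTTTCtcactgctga

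Whether the motif divides the members by direction cannot be told from so few. Among members with a promoter it was found in 1 of 2 that were higher in melanotropes, in 6 of 12 that were lower and in 6 of 18 that missed the threshold. Ifi27, also called higher, is not in the promoter table.

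The deposited values were FPKM, fragments per kilobase of transcript scaled to the size of the library, which correct for transcript length. The 4 columns had nearly equal sums although Pomc took 49.7% and 50.9% of them in melanotropes and 27.8% and 27.2% in corticotropes. They were therefore rescaled between libraries, and FPKM below are rescaled unless called deposited. Implied reads over the longest transcript of each gene, from the spacing of low values, came to 145939769 and 149734173 in melanotropes and 97612363 and 187200836 in corticotropes. Pax7, a melanotrope factor, was at 57.2 and 56.0 FPKM in melanotropes, against 9.45 and 7.97 in corticotropes. Crhr1, the corticotrope receptor for CRH, was at 8.13 and 7.03 FPKM in melanotropes, against 126 and 138 in corticotropes. Both markers sided with the labels, though neither was at 0 in the other cell type.

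Among the members, melanotropes had less B2m, Tap1, Usp18 and Ifih1 and more of the nonclassical class I gene H2-T23 and of Irf7. The main classical heavy chains H2-K1 and H2-D1 missed the threshold. A gene was tested if it had at least 1 FPKM in at least 2 libraries, and called at an adjusted p of 0.05 (limma on log2(FPKM + 1), Benjamini-Hochberg over 13043 genes, n = 2 per cell type). Of 35 members tested, 3 were higher and 13 lower in melanotropes. Over all genes tested, 36.2% were called, 18.7% higher and 17.5% lower. The called share of members, 45.7%, thus stood near that of all genes, with 8.57% higher and 37.1% lower. The median log2 difference of the members was -0.27, against 0.01 over all genes tested. Libraries of the cell types did not overlap for 5 members above and 22 below, where 36.0% and 34.4% of all genes do so, 70.4% in all. On the deposited scale, around a median of -0.42 over all genes, 2 members were higher and 30 lower, beside 7.14% and 66.8% of all genes (73.9% either way). Fewer genes were called in all when a library was left out, though without corticotrope replicate 1 more members were called lower than with all libraries. Leaving out melanotrope replicate 1 gave 3 higher and 5 lower members, beside 12.8% and 12.4% of all genes. Without corticotrope replicate 2 there were 3 and 8 members, beside 16.5% and 12.9%, and without melanotrope replicate 2 there were 2 and 10, beside 1392 and 1781 of 12697 genes. In bulk RNA, fewer cells with a transcript and less of it per cell cannot be told apart.

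**Figure D1:**
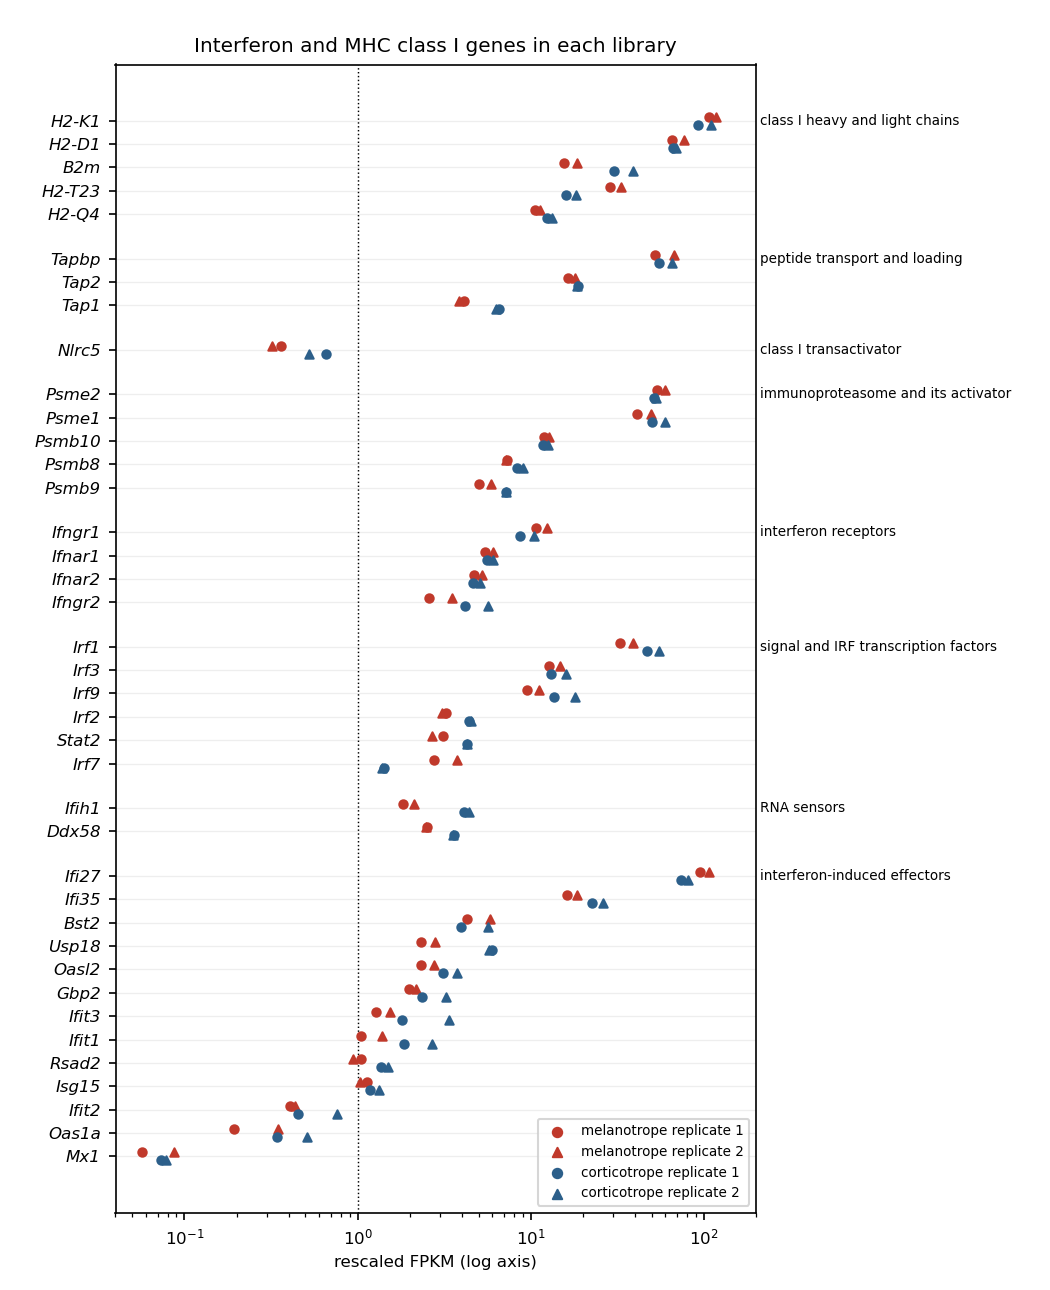
Rescaled FPKM (log axis) of the 39 members in each library, melanotropes in red and corticotropes in blue, circles for replicate 1 and triangles for replicate 2, grouped by role; the dotted line marks 1 FPKM. H2-T23 and Irf7 lie to the right in melanotropes, B2m, Tap1, Ifih1 and Usp18 to the left, and Nlrc5, Ifit2, Oas1a and Mx1 lie under 1 FPKM in every library.

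B2m, the light chain shared by class I molecules (chromosome 2, 122147687 to 122153082), was at 15.6 and 18.4 FPKM in melanotropes, against 30.4 and 38.8 in corticotropes. Both melanotrope libraries lay below both corticotrope libraries, at 0.492 times the corticotrope mean. The log2 difference was -0.98 (SE 0.14, adjusted p = 0.00312, limma), and B2m was called lower under all 14 alternatives. Its span overlaps Patl2 on the other strand, which stood at 0.0292 FPKM or less on average in either cell type.

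The classical heavy chains missed the threshold. H2-K1 (chromosome 17, 33996012 to 34000333) was at 107 and 117 FPKM in melanotropes, against 91.9 and 110.3 in corticotropes. H2-D1 (chromosome 17, 35263094 to 35267497) was at 65.3 and 76.8 FPKM in melanotropes, against 66.7 and 68.7 in corticotropes. The groups overlapped for both genes. The 95% interval of the log2 difference ran from -0.14 to 0.44 for H2-K1 and from -0.19 to 0.32 for H2-D1 (adjusted p = 0.369 and 0.671, limma). With no rescaling both were called lower, as B2m was, at -0.34 and -0.42 (adjusted p = 0.0143 and 0.00431; ranges over 14 alternatives 0.0143 to 0.947 and 0.00431 to 0.883), where 66.8% of all genes were called lower. H2-K1 lay above 97.5% of tested genes in mean level. H2-Q4, a class Ib heavy chain, was at 10.6 and 11.3 FPKM in melanotropes and 12.5 and 13.3 in corticotropes (adjusted p = 0.0883).

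H2-T23, which encodes the heavy chain of the nonclassical molecule Qa-1, a ligand of the CD94 and NKG2A receptor (chromosome 17, 36029977 to 36032701), went the other way. Its level was 28.7 and 33.3 FPKM in melanotropes, against 16.1 and 18.2 in corticotropes. The melanotrope libraries were the higher pair, with a ratio of means of 1.81. The log2 difference was 0.82 (SE 0.11, adjusted p = 0.00218, limma), and H2-T23 was called higher under all 14 alternatives, the deposited scale included (0.35). Class I genes resemble each other: of the 50-base words of the H2-T23 transcript, 28.8% also occur in transcripts of other genes (GENCODE M21), against 8.79% for H2-K1, 14.3% for H2-D1 and 24.3% for H2-Q4. No source used here says how such reads were counted, so the split between these genes is uncertain, and H2-D1 further overlaps the table's H2-L on the same strand. H2-T23 overlaps A930015D03Rik on the other strand, which averaged 4.02 FPKM in melanotropes and 3.85 in corticotropes.

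Ratios of genes within a library do not depend on the scaling, and were chosen after the values were seen. The ratio of B2m to H2-K1 was 0.146 and 0.158 in melanotropes, against 0.331 and 0.352 in corticotropes. For H2-T23 to H2-K1 it was 0.268 and 0.285 in melanotropes and 0.175 and 0.165 in corticotropes. In both ratios the cell types were apart by more than their replicates, and H2-T23 stood at 1.83 and 1.80 times B2m in melanotropes, against 0.529 and 0.468 times in corticotropes. With 2 libraries a group an exact permutation test cannot reach 0.05, so no p is given.

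Peptide supply and loading differed gene by gene. Tap1, a subunit of the peptide transporter (chromosome 17, 34187556 to 34197225), was at 4.13 and 3.83 FPKM in melanotropes, against 6.52 and 6.27 in corticotropes. It was lower in melanotropes by -0.57 on the log2 scale (SE 0.09, adjusted p = 0.00383, limma) and was called so under all 14 alternatives. Its partner Tap2 (chromosome 17, 34204479 to 34216321) was at 16.5 and 17.9 FPKM in melanotropes and 18.8 and 18.4 in corticotropes (log2 difference -0.11, 95% interval -0.31 to 0.09, adjusted p = 0.329). Tapbp, the tapasin gene (chromosome 17, 33919478 to 33929290), was at 52.2 and 66.8 FPKM in melanotropes and 55.3 and 65.2 in corticotropes, where the groups overlapped. The ratio of Tap1 to Tap2 was 0.251 and 0.214 in melanotropes, against 0.346 and 0.340 in corticotropes.

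Psmb8, Psmb9 and Psmb10 are the interferon-inducible catalytic subunits that replace Psmb5, Psmb6 and Psmb7 in the immunoproteasome. Psmb9 (chromosome 17, 34182099 to 34187330) was lower in melanotropes, at 5.0 and 5.90 FPKM, against 7.23 and 7.15 in corticotropes (log2 difference -0.35, SE 0.10, adjusted p = 0.0368, limma). That call was lost without melanotrope replicate 1 (adjusted p = 0.197), corticotrope replicate 1 (0.0691) or corticotrope replicate 2 (0.0587), with no expression filter (0.0769) and with equal sums outside Pomc (0.0538; range over 14 alternatives 0.00123 to 0.197). Psmb8 was at 7.32 and 7.16 FPKM in melanotropes and 8.34 and 9.03 in corticotropes (adjusted p = 0.0761), and Psmb10 was at 11.9 and 12.7 FPKM in melanotropes and 11.8 and 12.5 in corticotropes (adjusted p = 0.911). The standard subunits had higher levels than their inducible counterparts in every library. Psmb5 was at 62.7 and 62.3 FPKM in melanotropes and 50.1 and 48.8 in corticotropes, and was called higher (log2 difference 0.33, adjusted p = 0.0202) but not on the deposited scale, where its difference was -0.15, nor without any 1 of the 4 libraries (adjusted p = 0.0746 to 0.132; range over alternatives 0.00156 to 0.157). Psmb6 averaged 94.3 FPKM in melanotropes and 82.0 in corticotropes, and Psmb7 averaged 105.7 in melanotropes and 89.1 in corticotropes, and neither passed the test (adjusted p = 0.119 and 0.0676).

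Within a library, all 3 inducible subunits took a smaller ratio to their standard counterparts in melanotropes. Psmb8 to Psmb5 was 0.117 and 0.115 in melanotropes, against 0.166 and 0.185 in corticotropes. Psmb9 to Psmb6 was 0.0528 and 0.0629 in melanotropes, against 0.0858 and 0.0897 in corticotropes. Psmb10 to Psmb7 was 0.111 and 0.121 in melanotropes, against 0.130 and 0.143 in corticotropes. In none of the 3 ratios did the cell types overlap, which is common with 2 libraries each: levels of 70.4% of all genes tested did not overlap either. For Psmb10 to Psmb7 the gap between the cell types was smaller than the spread within either. Psme1 and Psme2 encode the interferon-inducible proteasome activator PA28. Psme1 was at 41.1 and 49.4 FPKM in melanotropes and 49.9 and 59.8 in corticotropes (adjusted p = 0.155). Psme2 was at 53.5 and 59.3 FPKM in melanotropes and 51.7 and 53.2 in corticotropes (adjusted p = 0.417). Of the 50-base words of Psme2, 59.3% also occur in Psme2b, so its level is uncertain. Psme3, the nuclear activator subunit, was higher in melanotropes at 22.2 and 24.1 FPKM, against 13.5 and 14.7 in corticotropes (log2 difference 0.68, SE 0.09, adjusted p = 0.00207), and kept that call under all 14 alternatives.

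**Figure D2:**
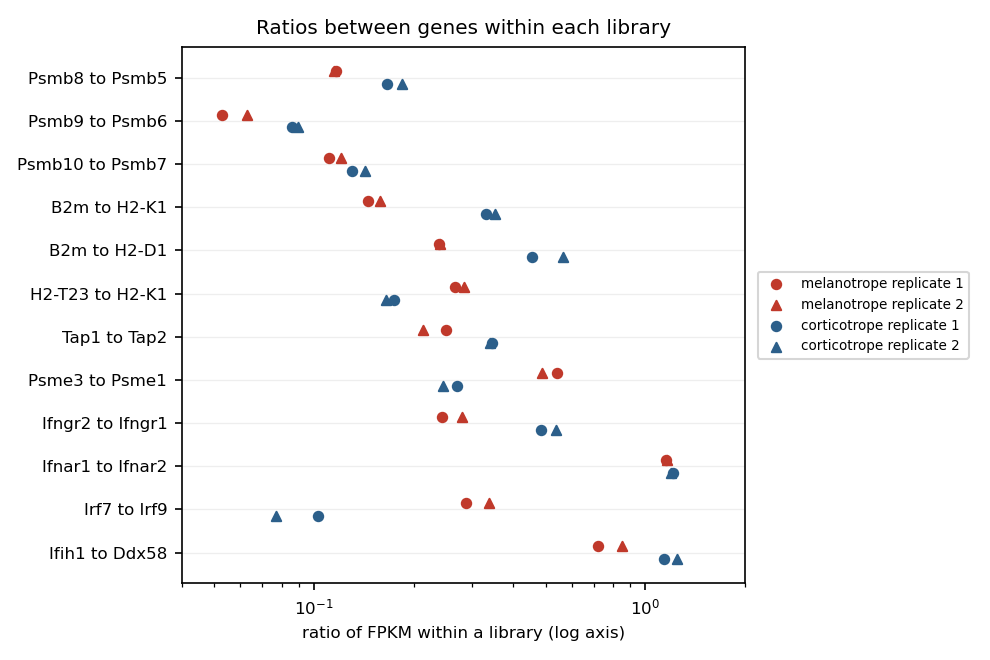
Ratios of FPKM between gene pairs within each library (log axis), melanotropes in red and corticotropes in blue, circles for replicate 1 and triangles for replicate 2. B2m to H2-K1 lies at 0.146 and 0.158 in melanotropes and at 0.331 and 0.352 in corticotropes, while H2-T23 to H2-K1 and Irf7 to Irf9 lie to the right in melanotropes.

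Several members are close neighbours on a chromosome. Within the MHC on chromosome 17, Psmb9 and Tap1 are transcribed apart from start sites 225 bases from each other and both were lower in melanotropes. Psmb8 follows Tap1 after 969 bases and Tap2 follows Psmb8 after 3024 bases, and both of these missed the threshold. Melanotropes lay below corticotropes for all 4 genes, as for 22 of 35 members and 34.4% of all genes tested, and by only -0.11 on the log2 scale for Tap2. H2-T23, higher in melanotropes, lies further along the same chromosome. On chromosome 14, Psme1, Psme2 and Irf9 stand within gaps of 5912 and 12963 bases, and Irf9 was called lower. On chromosome 16, Ifnar2, Ifnar1 and Ifngr2 lie in a row with gaps of 79627 and 36571 bases, and Ifngr2 was called.

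Nlrc5, the transactivator of class I genes (chromosome 8, 94472763 to 94527272), stood at 0.363 and 0.322 FPKM in melanotropes, against 0.655 and 0.521 in corticotropes. These levels rest on 483 and 420 implied reads in melanotropes and 635 and 953 in corticotropes. Both melanotrope libraries lay below both corticotrope libraries, at 0.583 times the corticotrope mean, but Nlrc5 did not pass the expression filter and has no adjusted p.

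The receptors of type I interferon were at close levels. Ifnar1 was at 5.41 and 6.07 FPKM in melanotropes and 5.58 and 6.07 in corticotropes, and Ifnar2 was at 4.67 and 5.23 FPKM in melanotropes and 4.62 and 5.08 in corticotropes. The groups overlapped, with 95% intervals of the log2 difference from -0.25 to 0.21 and from -0.21 to 0.26 (adjusted p = 0.896 and 0.862, limma). Of the interferon gamma receptor, the signalling chain Ifngr2 (chromosome 16, 91547094 to 91564007) was at 2.60 and 3.49 FPKM in melanotropes, against 4.18 and 5.63 in corticotropes. It was called lower (log2 difference -0.54, SE 0.16, adjusted p = 0.0428), but not without melanotrope replicate 1 (0.152) or corticotrope replicate 2 (0.0976), nor with no expression filter (0.111; range over 14 alternatives 6.36e-04 to 0.152). The ligand-binding chain Ifngr1 was at 10.7 and 12.5 FPKM in melanotropes and 8.62 and 10.5 in corticotropes (adjusted p = 0.153), and was called higher without corticotrope replicate 2 (0.0427; range 0.0132 to 0.521). The ratio of Ifngr2 to Ifngr1 was 0.243 and 0.281 in melanotropes, against 0.485 and 0.537 in corticotropes.

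The interferons themselves were near the limit of detection. Of 18 interferon genes in the table, 11 were listed at 0 in all libraries, and the highest deposited value of any in any library was 0.07 FPKM. Implied reads over all 18 came to 20 and 16 in melanotropes and 17 and 21 in corticotropes. None of the 18 passed the expression filter, so no difference between the cell types was tested.

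Most signal factors were lower in melanotropes and Irf7 was higher. Irf7, the inducible IRF that amplifies type I interferon responses (chromosome 7, 141263183 to 141266424), was at 2.75 and 3.77 FPKM in melanotropes, against 1.42 and 1.39 in corticotropes. Both melanotrope libraries lay above, with a ratio of means of 2.32, on 978 and 1316 implied reads in melanotropes and 368 and 681 in corticotropes. The log2 difference was 0.81 (SE 0.13, adjusted p = 0.00525, limma), and Irf7 was called higher under all 14 alternatives.

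Stat2 and Irf9 act together at the response element. Irf9 (chromosome 14, 55603985 to 55610030) was at 9.54 and 11.1 FPKM in melanotropes, against 13.7 and 18.1 in corticotropes. It was called lower (log2 difference -0.57, SE 0.14, adjusted p = 0.0262), though not without melanotrope replicate 1 (0.0746) or with no expression filter (0.0687; range over 14 alternatives 3.73e-04 to 0.0746). Stat2 (chromosome 10, 128270576 to 128292849) was at 3.10 and 2.70 FPKM in melanotropes, against 4.31 and 4.29 in corticotropes, and was lower by -0.45 on the log2 scale (adjusted p = 0.0136; 0.0878 without melanotrope replicate 2; range 0.00191 to 0.0878). The ratio of Irf7 to Irf9 was 0.288 and 0.339 in melanotropes, against 0.103 and 0.0769 in corticotropes.

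Irf1, an activator of class I genes (chromosome 11, 53770014 to 53777324), was at 32.7 and 38.7 FPKM in melanotropes, against 46.9 and 55.2 in corticotropes. The log2 difference was -0.50 (SE 0.12, adjusted p = 0.0222), lost without melanotrope replicate 1 (0.0759), without corticotrope replicate 2 (0.0729) and with no expression filter (0.0531; range 1.94e-04 to 0.0759). Irf2, which can oppose Irf1 at the same sites (chromosome 8, 46739745 to 46847458), was also lower, at 3.22 and 3.07 FPKM in melanotropes, against 4.42 and 4.54 in corticotropes (log2 difference -0.40, adjusted p = 0.0137). Its call was lost without melanotrope replicate 1 (0.0540) or 2 (0.0836; range 0.00143 to 0.0836). The ratio of Irf1 to Irf2 overlapped between the cell types, at 10.2 and 12.6 in melanotropes and 10.6 and 12.1 in corticotropes. Irf3, which relays RNA sensing without being induced itself, was at 12.8 and 14.8 FPKM in melanotropes and 13.2 and 15.9 in corticotropes (95% interval of the log2 difference -0.36 to 0.22, adjusted p = 0.675).

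Both cytosolic RNA sensors were lower in melanotropes. Ifih1, which encodes MDA5, a sensor of long double-stranded RNA (chromosome 2, 62595793 to 62646255), was at 1.83 and 2.11 FPKM in melanotropes, against 4.13 and 4.41 in corticotropes. The groups were far apart beside the spread of their replicates, at 0.460 times the corticotrope mean (log2 difference -0.83, SE 0.10, adjusted p = 0.00141), and the call stood under all 14 alternatives. Ddx58, which encodes RIG-I (chromosome 4, 40203777 to 40239825), was at 2.53 and 2.48 FPKM in melanotropes, against 3.62 and 3.55 in corticotropes (log2 difference -0.39, adjusted p = 0.0159). Leaving out melanotrope replicate 1, melanotrope replicate 2 or corticotrope replicate 1 ended the Ddx58 call (adjusted p = 0.0753, 0.0917 and 0.0510; range 0.00163 to 0.0917). Dhx58, which encodes the third member of that family, LGP2, was lower too, at 1.53 and 1.64 FPKM in melanotropes, against 3.79 and 4.03 in corticotropes (log2 difference -0.93, adjusted p = 7.22e-04), under all 14 alternatives.

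**Figure D3:**
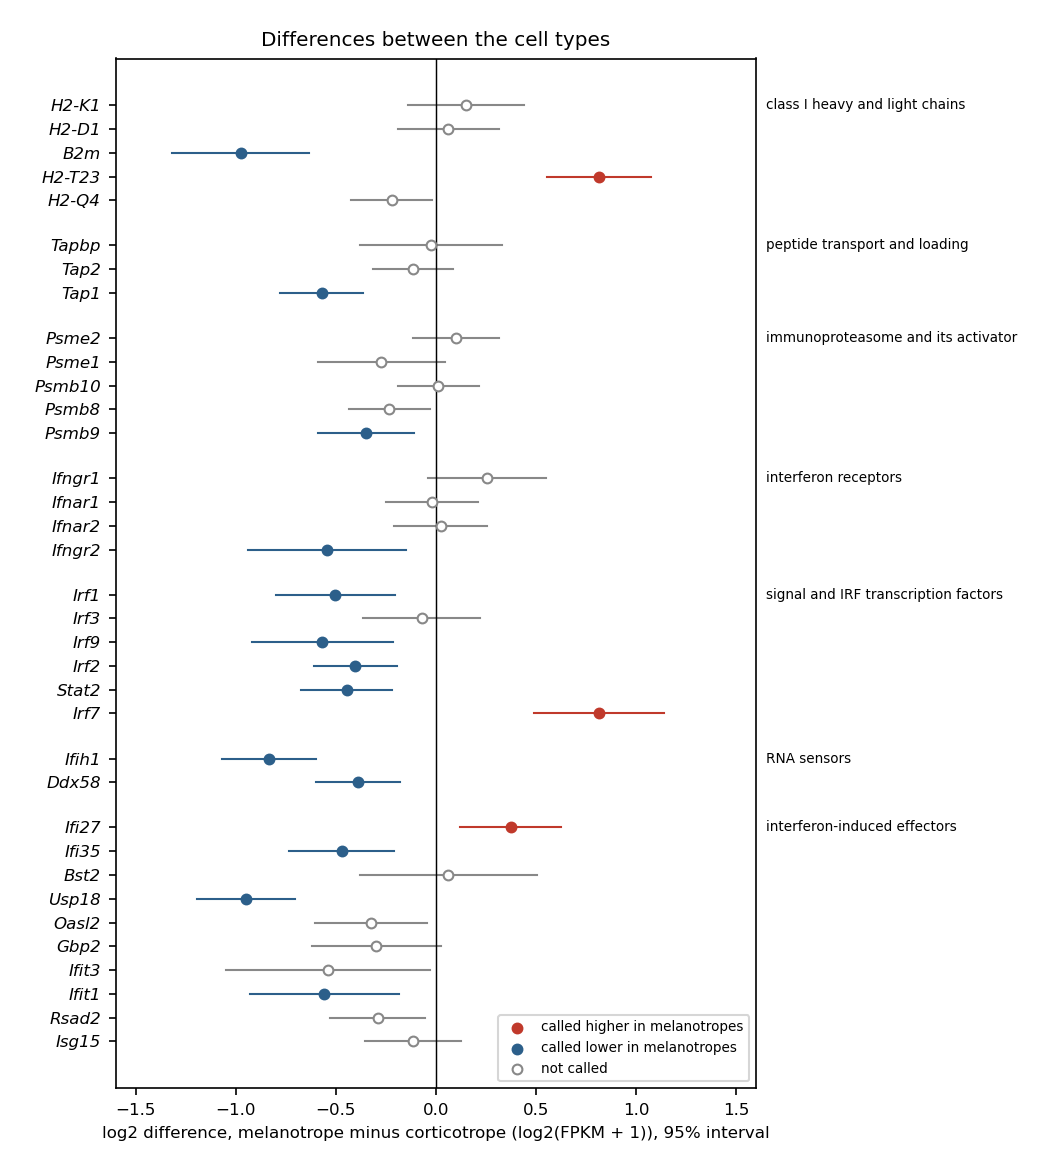
Log2 difference of melanotropes minus corticotropes on log2(FPKM + 1) for the 35 members tested, with 95% intervals from limma, grouped by role; filled points passed an adjusted p of 0.05. H2-T23, Irf7 and Ifi27 are filled right of 0, 13 members are filled left of 0, and B2m and Usp18 lie furthest left.

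Interferon-induced effectors were mostly at low levels. Usp18, the protease that removes Isg15 from proteins and damps type I interferon signalling (chromosome 6, 121245906 to 121270917), had the smallest adjusted p of the members. Its level was 2.31 and 2.79 FPKM in melanotropes, against 5.95 and 5.73 in corticotropes, a ratio of means of 0.437 (log2 difference -0.95, SE 0.10, adjusted p = 9.80e-04, limma), with the same call under all 14 alternatives. Isg15 itself was at 1.13 and 1.03 FPKM in melanotropes and 1.18 and 1.33 in corticotropes (95% interval of the log2 difference -0.36 to 0.13, adjusted p = 0.412), lower in mean level than all but 4.18% of tested genes.

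The effectors with the highest levels went in opposite directions. Ifi27, a small interferon-induced membrane protein gene (chromosome 12, 103434189 to 103440245), was at 94.8 and 106 FPKM in melanotropes, against 73.4 and 81.4 in corticotropes. It was called higher (log2 difference 0.37, SE 0.10, adjusted p = 0.0347), but its difference turned to -0.11 on the deposited scale (adjusted p = 0.199). The call was also lost without melanotrope replicate 2 (0.155), corticotrope replicate 1 (0.205) or corticotrope replicate 2 (0.0592), and with no expression filter (0.0596; range 6.86e-04 to 0.205). Its span overlaps Ifi27l2a on the other strand, which averaged 5.71 FPKM in melanotropes and 2.94 in corticotropes, and no source used here says whether reads were counted by strand. Ifi35, a partner of Nmi (chromosome 11, 101448412 to 101458701), was lower, at 16.2 and 18.5 FPKM in melanotropes, against 22.7 and 26.2 in corticotropes (log2 difference -0.47, adjusted p = 0.0178). Its call was lost without melanotrope replicate 1 (0.0656) or corticotrope replicate 2 (0.0550; range 4.22e-04 to 0.0656).

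Of the Ifit genes, whose products bind viral RNA, Ifit1 (chromosome 19, 34640889 to 34650009) was at 1.04 and 1.39 FPKM in melanotropes, against 1.87 and 2.69 in corticotropes. It was called lower (log2 difference -0.56, adjusted p = 0.0334), but not without melanotrope replicate 1 (0.127) or corticotrope replicate 2 (0.122), nor with no expression filter (0.0840; range 0.00127 to 0.127). Ifit3 was at 1.27 and 1.55 FPKM in melanotropes and 1.81 and 3.35 in corticotropes, where the corticotrope libraries differed more from each other than corticotrope replicate 1 did from the melanotropes. It missed the threshold (adjusted p = 0.0938) and was called lower without corticotrope replicate 1 (0.00104; range 0.00104 to 0.335), and 51.2% of its 50-base words also occur in Ifit3b. Ifit2 was at 0.408 and 0.434 FPKM in melanotropes and 0.450 and 0.756 in corticotropes, and was not tested.

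The other effectors missed the threshold or the expression filter. Rsad2, the antiviral enzyme viperin, was at 1.04 and 0.942 FPKM in melanotropes and 1.37 and 1.5 in corticotropes (adjusted p = 0.0637; called with a single prior variance, 0.0441; range 0.00459 to 0.305). Oasl2 was at 2.34 and 2.76 FPKM in melanotropes and 3.14 and 3.75 in corticotropes (adjusted p = 0.0740), and Gbp2, a guanylate-binding protein gene, at 1.97 and 2.18 FPKM in melanotropes and 2.37 and 3.24 in corticotropes (adjusted p = 0.133). Without corticotrope replicate 1 both were called lower (0.0388 and 0.0260; ranges 0.00236 to 0.309 and 0.00560 to 0.544). Bst2, which encodes tetherin, overlapped between the groups at 4.27 and 5.80 FPKM in melanotropes and 3.95 and 5.63 in corticotropes. Oas1a averaged 0.270 FPKM in melanotropes and 0.428 in corticotropes, with 57.6% of its 50-base words also in Oas1g. Mx1 averaged 0.0717 FPKM in melanotropes and 0.0759 in corticotropes, on 30 and 46 implied reads in melanotropes and 29 and 58 in corticotropes.

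**Figure D4:**
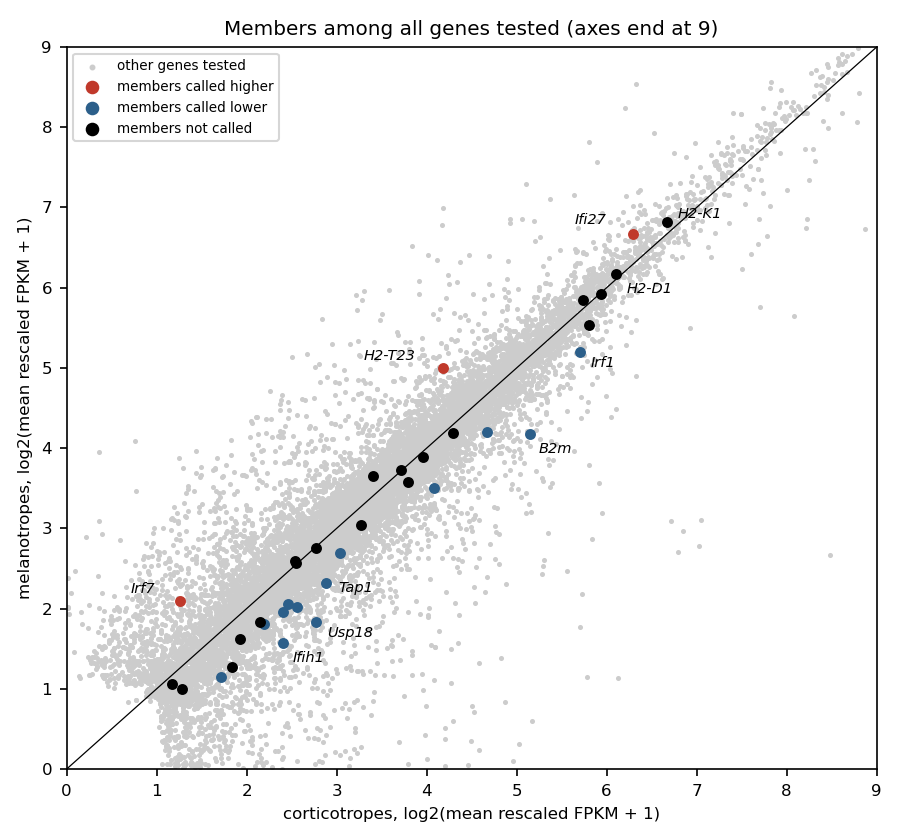
Mean rescaled FPKM on a log2(value + 1) scale in melanotropes (vertical) and corticotropes (horizontal) for the 35 members tested, over the other genes tested in grey; the line marks equal levels. Members called higher are red, called lower blue and not called black, and most of them lie within the band of other genes.

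Genes with several transcripts gave like values for each. In the 11 members with more than 1 transcript, the log2 differences of a gene's transcripts spread by at most 0.05, the widest being Ifnar2. In the authors' deposited table, 0 of the 56 member transcripts had a false discovery rate under 0.05, beside 2.28% of all transcripts. A p-value under 0.05 was listed for 9 of the 56, beside 1912 of all 33072 transcripts. These 9 belong to B2m, H2-T23, Ifi27 and Irf1 alone, the last 2 genes with more than 1 transcript each, so they are not separate members. The lowest rate in the authors' deposited table was 0.0521, for B2m. Those statistics had been run on the FPKM values themselves.

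Further genes of the pathway, taken from lists written with earlier results of these data known, moved both ways. Of 127 listed genes 125 were in the table and 76 were tested, with 17 higher and 17 lower in melanotropes and a median log2 difference of -0.02. With no rescaling 2 class I relatives were higher and 5 lower, 0 loading genes higher and 1 lower, 1 signalling gene higher and 7 lower, 0 sensing genes higher and 7 lower, and 0 induced genes higher and 21 lower (limma), around the median of -0.42 over all genes. On that scale 66.8% of all genes were called lower and 7.14% higher, so these counts do not set the lists apart. Of 10 tested class I relatives 4 were higher and 1 lower. Hfe, the class I-like regulator of iron uptake, was at 22.7 and 23.6 FPKM in melanotropes, against 9.92 and 10.5 in corticotropes (log2 difference 1.10, adjusted p = 2.55e-04). Fcgrt, the neonatal Fc receptor heavy chain, which like H2-T23 pairs with B2m, was at 16.4 and 21.4 FPKM in melanotropes, against 5.66 and 7.70 in corticotropes (log2 difference 1.37, adjusted p = 0.00185). The lipid-presenting Cd1d1 was lower, at 2.59 and 3.89 FPKM in melanotropes, against 7.65 and 9.76 in corticotropes (log2 difference -1.20, adjusted p = 0.00355). Hfe, Fcgrt and Cd1d1 kept their calls under all 14 alternatives. H2-T22 was higher by 0.42 (adjusted p = 0.0129), with -0.034 on the deposited scale and no call without melanotrope replicate 2, where 2 relatives were higher (range of adjusted p 0.00139 to 0.706).

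Of 5 further loading genes and endoplasmic reticulum chaperones, 3 were higher and 0 lower in melanotropes (0 also at an unadjusted p under 0.05, limma). The chaperone Calr was at 550.5 and 511.8 FPKM in melanotropes, against 319.8 and 299.5 in corticotropes (log2 difference 0.78, adjusted p = 0.00430), and it missed the threshold only on the deposited scale (0.29, adjusted p = 0.0691; range over 14 alternatives 9.69e-06 to 0.0691). Canx (0.38) and Tapbpl (0.39) were higher too, and both turned negative on the deposited scale, at -0.10 and -0.074 (adjusted p = 0.351 and 0.530, the highest of their alternatives, whose lowest were 5.29e-04 and 0.00901). Canx was not called without any 1 of the 4 libraries (0.0650 to 0.140), and Tapbpl neither without melanotrope replicate 2 (0.157) or corticotrope replicate 2 (0.107) nor with no expression filter (0.0760). The list had 1 higher member without melanotrope replicate 2 or corticotrope replicate 2.

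Of 11 further signalling genes tested, 2 were higher and 3 lower. Jak1, the kinase shared by both kinds of receptor, was at 19.3 and 21.0 FPKM in melanotropes, against 27.9 and 26.6 in corticotropes (log2 difference -0.42, adjusted p = 0.0113; 0.0544 without melanotrope replicate 1; range 5.76e-04 to 0.0544). Tyk2 (-0.34) and Pias1 (-0.29) were lower as well, and neither was called without melanotrope replicate 1 or 2 or corticotrope replicate 1, so that 0 to 1 of the list were lower in those fits. With equal sums outside Pomc neither was called (adjusted p = 0.0905 and 0.0896; ranges 0.00266 to 0.128 and 0.00143 to 0.15). Il10rb, a chain of the receptors for interferon lambda and interleukin 10, was higher, at 17.2 and 21.1 FPKM in melanotropes, against 11.8 and 12.5 in corticotropes (log2 difference 0.61, adjusted p = 0.00841), but not called on the deposited scale (0.174; range 2.81e-04 to 0.174). Irf8 was higher at 1.51 and 2.86 FPKM in melanotropes, against 0.630 and 0.756 in corticotropes (adjusted p = 0.0193; 0.0596 with no expression filter; range over the 12 alternatives with a value 8.39e-04 to 0.0596). It passed the expression filter only through the melanotrope libraries, which largely set its direction, and failed the filter without either of them. Irf8 is also a factor of macrophages and microglia. Several of their markers, such as C1qa, were higher in these melanotrope libraries. Whether such cells bear on the level of Irf8 was not tested.

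Among 32 further interferon-induced genes tested, 5 were higher and 10 lower in melanotropes, with a median log2 difference of -0.18. Plscr1, a phospholipid scramblase, had the smallest adjusted p, at 1.27 and 1.45 FPKM in melanotropes, against 7.10 and 8.82 in corticotropes (log2 difference -1.92, adjusted p = 1.61e-04). Isg20, an RNA exonuclease, was at 3.2 and 2.84 FPKM in melanotropes, against 12.6 and 10.8 in corticotropes (-1.66, adjusted p = 1.69e-04), and Gbp7 was lower by -0.55. These 3 kept their calls under all 14 alternatives. Higher were Cmpk2, a nucleotide kinase next to Rsad2 in the genome, at 8.51 and 7.75 FPKM in melanotropes, against 5.38 and 4.88 in corticotropes (0.57), Gbp9 (0.54) and Lgals3bp (0.62), and these 3 missed the threshold on the deposited scale (adjusted p = 0.301, 0.125 and 0.245, the highest of their alternatives, whose lowest were 3.16e-04, 9.27e-04 and 1.28e-04). Without melanotrope replicate 1 the list had 5 lower, without melanotrope replicate 2 it had 2 higher, and without corticotrope replicate 1 it had 3 higher. Of 7 further sensing genes tested, 1 was higher and 2 lower: besides Dhx58 these were Trim25 (0.36), which turned to -0.080 on deposited values (adjusted p = 0.425, of 0.00299 to 0.425 over its alternatives) and was not called without melanotrope replicate 1 (0.0547) or 2 (0.0845), and Myd88 (-0.45, adjusted p = 0.0108; range over alternatives 6.55e-04 to 0.0546, the highest without melanotrope replicate 1).

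Markers of other cell types, many of which express class I genes strongly, differed between the libraries. Summed over 15 leukocyte and macrophage markers the level was 24.7 and 31.2 FPKM in melanotropes, against 9.46 and 13.1 in corticotropes, and 6 of 8 tested were higher. Of these 6, Csf1r, Cx3cr1 and Tyrobp passed the expression filter only through melanotropes, which largely set their direction. Not all of the list went this way: Ptprc, Lyz2 and Fcer1g overlapped between the cell types. Cd79a lay lower, at 0.181 and 0.112 FPKM in melanotropes, against 0.336 and 0.287 in corticotropes. The complement gene C1qa, a macrophage and microglia marker, was at 5.51 and 7.15 FPKM in melanotropes, against 1.6 and 2.41 in corticotropes, while the T cell gene Cd3e was at 0 in all libraries but corticotrope replicate 2 (0.00869). Summed over 12 endothelial markers the level was 10.5 and 7.50 FPKM in melanotropes, against 18.5 and 28.6 in corticotropes, and 4 of 6 tested were lower. Of these 4, Emcn passed the filter only through corticotropes. Of 6 tested MHC class II genes, which mark antigen-presenting cells, 1 was lower in melanotropes, H2-DMa at 1.29 and 1.24 FPKM, against 2.71 and 2.70 in corticotropes, and without corticotrope replicate 1 there were 5. Summed over 12 markers of other anterior pituitary lineages the level was 14.4 and 63.6 FPKM in melanotropes, against 5809 and 5660 in corticotropes, and 12 of 12 were lower. Tshb, Pou1f1, Foxl2, Nr5a1, Dlk1, Ghrhr and Gnrhr passed the filter only through corticotropes, which largely set their direction. Over 5 red blood cell markers it was 3.62 and 5.25 FPKM in melanotropes, against 26.0 and 32.4 in corticotropes. Over 9 mesenchymal markers it was 20.6 and 18.1 FPKM in melanotropes, against 9.59 and 11.6 in corticotropes, though Rgs5 lay lower and Col1a2 and Acta2 overlapped. Over 8 glial markers it was 132 and 146 in melanotropes, against 76.4 and 88.0 in corticotropes. Most of the glial sum was Apoe, at 95.8 and 104 FPKM in melanotropes, against 59.5 and 67.5 in corticotropes. Sox2, Slc1a3 and Gfap were higher in melanotropes too, S100b overlapped, and Aldh1l1, Aqp4 and Fabp7 lay lower. The endothelial, red blood cell and other anterior lineage sums were lower in melanotropes and the leukocyte, mesenchymal and glial sums higher, so the lists went both ways, as the members did. The part of such cells in the members' differences was not tested.

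**Figure D5:**
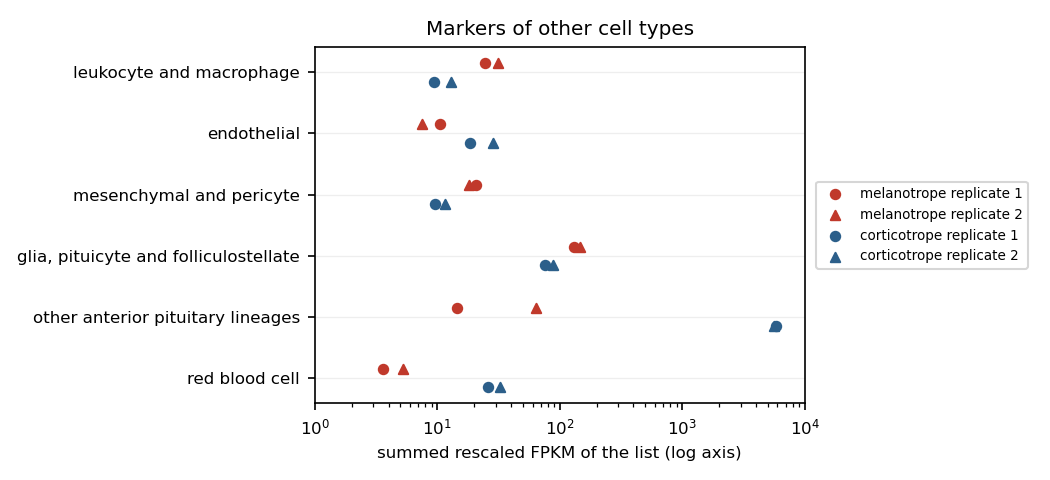
Summed rescaled FPKM (log axis) of marker lists of other cell types in each library, melanotropes in red and corticotropes in blue, circles for replicate 1 and triangles for replicate 2. Leukocyte, mesenchymal and glial sums lie higher in melanotropes, and endothelial, red blood cell and other anterior lineage sums lie higher in corticotropes.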

How the data were processed

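RNA-seq of 2 melanotrope and 2 corticotrope libraries was analysed. Per the file headers, the authors counted exon reads over RefSeq transcripts of mm10 with HOMER and wrote FPKM. The deposited log2 fold changes, p-values and FDR were computed from these FPKM by getDiffExpression, a HOMER program, per the file headers. A deposited fold column was treated as a score and not used. TopHat and edgeR are named besides HOMER in the submitters' processing notes, as is GRCm38. No source used here states versions, strand or how reads shared by genes were handled.

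Columns were divided by trimmed mean of M values factors (unweighted, trimming 30% of M and 5% of A), 0.882 and 0.807 in melanotropes and 1.22 and 1.15 in corticotropes. The longest transcript stood for its gene. The test was limma 3.58.1 in R 4.3.3 (eBayes with trend, two-sided) on log2(FPKM + 1), a scale that understates the change of low genes, with 2 residual and 4.02 prior degrees of freedom and a threshold of 0.05 after Benjamini-Hochberg adjustment over 13043 genes. Libraries of a cell type correlated at 0.993 (melanotropes) and 0.992 (corticotropes) across genes, which are not independent replicates, and those of different cell types at 0.915 to 0.921. The fit was also run on data simulated from its own means and variances, which checks the code and not the assumptions behind the calls.

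Implied reads came from the spacing of low values, where 99.6% to 100% of those used lay within 0.1 of a whole read. Whether a pair counted as 1 or 2 is unknown, and FPKM were deposited to 2 decimals. Coordinates are those of the table (mm10), counted from 1, for the longest transcript, and promoters are from RefSeq (GRCm38.p6). The members, gene lists and rules for named genes were chosen with earlier results of these data known. All members were named, with up to 3 genes per direction of each further list by adjusted p, plus the standard proteasome subunits, and 1 further gene of that rule is not reported here; the marker genes named were chosen after their values were seen. The 14 alternatives are in the closing section.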

Additional observations from a re-analysis of the deposited data

How the results depend on the processing

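Of the 16 members called, 6 kept call and direction under all 14 alternatives (B2m, H2-T23, Tap1, Irf7, Ifih1 and Usp18), and 15 never changed sign, Ifi27 on the deposited scale being the exception. Pseudocounts of 0.1 and 5, median-of-ratios scaling and a mean-based filter changed no member's call. Calls on the deposited FPKM numbered 9726 genes (939 higher, 8787 lower) and 32 members, 30 of them lower. Leaving out 1 library gave 3173 to 3676 genes called (1392 to 2065 higher, 1572 to 1781 lower) and 8 to 16 members called (2 to 3 higher, 5 to 14 lower). The libraries share only replicate numbers in the labels; deviations of same-numbered libraries correlated at 0.526 across genes. With the replicate number as a block 20 members were lower (57.1%) and 4 higher (11.4%). Of all genes 7001 were then called (53.7%), 25.7% lower and 28.0% higher. With no expression filter 11 of 39 members were called (28.2%), beside 24.8% of 20297 genes.

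Signs turned for members that had missed the threshold and for some called genes. On the deposited scale the log2 differences were -0.34 (H2-K1), -0.42 (H2-D1), -0.44 (Psmb10), -0.38 (Psme2), -0.11 (Ifi27), -0.34 (Bst2), -0.38 (Ifnar2) and -0.19 (Ifngr1), and, outside the members, -0.034 (H2-T22), -0.10 (Canx), -0.074 (Tapbpl), -0.15 (Psmb5), -0.29 (Psmb6), -0.24 (Psmb7), -0.27 (Psme4) and -0.080 (Trim25). With equal sums outside Pomc they were 0.029 for Tapbp and 0.027 for Ifnar1, and with the highest-mean transcript -0.030 for Ifnar2. Leaving out 1 library in turn gave -0.052 to 0.179 (H2-D1), -0.199 to 0.152 (Tapbp), -0.030 to 0.057 (Psmb10), -0.198 to 0.056 (Irf3), -0.148 to 0.273 (Bst2), -0.089 to 0.053 (Ifnar1) and -0.043 to 0.092 (Ifnar2). The deposited scale carries the larger share of Pomc in melanotropes by its construction, and other causes were not tested. Corticotrope replicate 1 has the fewest implied reads, and members under 1 FPKM carry rounding error.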
